A study of Schmidtea mediterranea with 152 samples.

Results

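otxb-like is the transcript contig dd_Smed_v4_15516 of a planarian transcriptome assembly, a homeobox gene that the study lists among genes of the posterior pole. It is 1 of the 26399 transcripts counted, and it was followed in every cell of the 4 labelled groups because it stood out in pole cells of these same libraries. Its levels are therefore given as a description, with no test. The cells came from Schmidtea mediterranea, a freshwater flatworm that regrows any missing part, of the asexual CIW4 strain. They were regenerating pole cells (5 libraries) and regenerating non-pole muscle cells (75), taken from the midline of posterior blastemas 72 hours after the tail was cut off, and uninjured pole cells (7) and uninjured non-pole muscle cells (65), cut from midline tail tips of intact animals. The labels name no treatment of these groups other than starvation, which all animals had, and the cut. Cells with the DNA content of non-dividing cells were sorted singly, and the mRNA of each was amplified and sequenced by Smart-seq2, which reads whole transcripts and carries no molecular identifiers.

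Homeobox genes encode transcription factors that bind DNA through the homeodomain. The Otx family is named after orthodenticle of Drosophila, and its members are best known from the head and brain of flies and vertebrates. In planarians, a few muscle cells at the tail end, the posterior pole, express wnt1, a ligand gene of the Wnt pathway, which sets tail identity. The homeobox genes pitx and islet1 are needed to form this pole, and wnt11-2 is a Wnt ligand gene of the tail midline.

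Whether a cell is called pole or non-pole rested on qRT-PCR of each cell's cDNA, in which pole cells held wnt1 and collagen while non-pole muscle cells held collagen without wnt1. The primer sequences of that screen are shown because they drew the line across which otxb-like is described. They are written 5′ to 3′ as the study gives them.
wnt1 forward: gtgacattatgctcaaaggatttcc
wnt1 reverse: acggacagtgtgataacttaaacg
collagen forward: ggtgtacttggagacgttggttta
collagen reverse: ggtctaccttctcttcctggaac

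Among the uninjured non-pole libraries, 6 pairs held near-identical counts and each pair was summed to 1 cell. After 12 shallow cells were left out, 5 regenerating pole, 69 regenerating non-pole, 7 uninjured pole and 53 uninjured non-pole cells remained, with 51801 to 4132918 reads on transcripts per cell. The labels name no animal and no replicate, and replicate numbers below follow accession order and only name a cell. Each group therefore is 1 sample, the cells are not replicates, and no difference is checked against replicates. Levels are in CPM, counts per 1e6 reads on transcripts, and a group's level is that of its summed reads. Intervals are exact 95% intervals that cover counting error only. The muscle label was checked against 13 collagen contigs, whose summed level was 14847 to 50410 CPM in regenerating pole cells, 62.7 to 138079 CPM in regenerating non-pole cells, 472 to 63472 CPM in uninjured pole cells and 124.98 to 172463 CPM in uninjured non-pole cells. The low end of these ranges shows that some cells of each non-pole group, and uninjured pole replicate 1, held little collagen RNA. The wnt1 side of the screen was not clean in the sequenced reads. wnt1 was read in 3 of the 69 regenerating non-pole cells, at up to 15.3 CPM. It was also read in 6 of the 53 uninjured non-pole cells, at up to 224 CPM.

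All 2107 otxb-like reads lay in kept cells, on 1 row of the count table. Of these, 633 came from the 5 regenerating pole cells and 1 from the 69 regenerating non-pole cells, while 1296 came from the 7 uninjured pole cells and 177 from the 53 uninjured non-pole cells. The gene was thus read mainly in the pole cells of both conditions, and its reads in non-pole cells lay almost wholly in the uninjured tail.

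In regenerating pole replicates 1 to 5, otxb-like stood at 0, 446, 124.8, 17.7 and 113.6 CPM. Replicate 2 was the highest, and replicate 1 held no read. In uninjured pole replicates 1 to 7, the gene stood at 0, 780, 162, 221, 148.8, 0 and 0 CPM. Replicate 2 was again the highest, replicates 3 to 5 lay near each other, and replicates 1, 6 and 7 held none. The values of the pole cells of both conditions overlapped over most of their range.

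In regenerating non-pole cells the median and the lowest value were 0 CPM, and the highest, in the single cell with a read, was 7.67 CPM. In uninjured non-pole cells the median and the lowest value were also 0 CPM, and the highest was 201 CPM. The uninjured classes overlapped in both directions, since 3 of the 7 pole cells were at 0 and the highest non-pole cell lay above 2 of the 4 pole cells that held the gene.

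**Figure D1:**
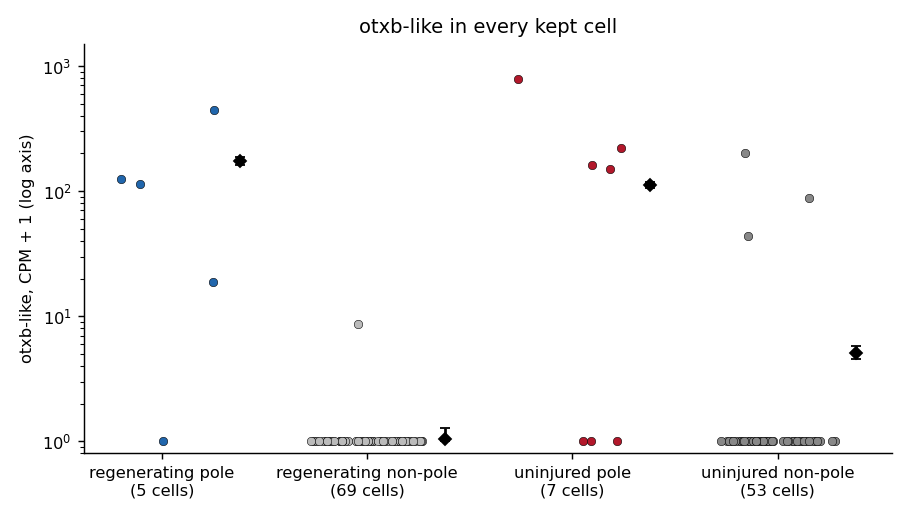
otxb-like in every kept cell of the 4 groups, in CPM plus 1 on a log axis, so that cells with no read sit at 1. Each circle is a cell and each diamond the level of the group's summed reads with its exact Poisson interval. The pole cells that held the gene lie between 17.7 and 780 CPM, and nearly all non-pole cells lie on the bottom line.

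The summed level of otxb-like was 174 CPM (160.3 to 188) in regenerating pole cells, against 0.0491 CPM (0.00124 to 0.274) in regenerating non-pole cells. This is a log2 fold of 7.38 with a pseudocount of 1 CPM. The plain ratio was 3535, and since it rests on 1 non-pole read its interval runs from 632 to 139862. In the uninjured tail, pole cells had a summed level of 111.3 CPM (105.3 to 117.5), against 4.09 CPM (3.51 to 4.74) in non-pole cells. The log2 fold was 4.46, and the ratio was 27.2 (23.3 to 32.04). Both conditions thus put the gene higher in pole cells, by more in the blastema, and the difference between the 2 folds was not tested.

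The classes differed in other listed genes as well. In the blastema the 11 contractile contigs summed to a median of 12716 CPM a cell (7533 to 32774) in pole cells and 32307 CPM (165 to 104889) in non-pole cells. Their median in the uninjured tail was 2125 CPM (283 to 27410) in pole cells and 25490 CPM (99.7 to 109565) in non-pole cells. The collagens had medians of 35577 CPM in regenerating pole cells against 58990 CPM in regenerating non-pole cells, and, in the uninjured tail, of 20320 CPM in pole and 66364 CPM in non-pole cells. The 3 contigs linked to cell division had medians of 182 CPM in regenerating pole and 189.7 CPM in uninjured pole cells, and of 0 CPM in both non-pole groups. Pole cells thus held less RNA of muscle products at the median, and the part of these differences in the otxb-like values was not tested.

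These folds are the values the gene was chosen on, so they are set here against all transcripts and nothing more is read from them. Among 19372 transcripts with at least 20 summed reads, 13.2% were higher in pole cells of the blastema at a log2 fold of 1 or more, and 37.8% were lower at -1 or less. In the uninjured tail 18.9% were higher and 48.1% lower. In both conditions 3.11% were higher and 19.7% lower. otxb-like ranked 12 of 19372 by log2 fold in the blastema and 300 of 19372 in the uninjured tail, and 6 other transcripts stood as high or higher in both. A typical transcript was lower in pole cells, at a median log2 fold of -0.43 in regenerating and -0.91 in uninjured cells.

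By summed reads the order of the groups was regenerating pole, uninjured pole, uninjured non-pole and regenerating non-pole. The first and second were not set apart by their cells. With every cell given the same weight, the mean was 140.5 ± 180 CPM in regenerating pole cells (SD, 5 cells) and 187 ± 277 CPM in uninjured pole cells (SD, 7 cells), which turns their order round. The summed ratio of regenerating over uninjured pole cells was 1.56 (1.42 to 1.72), and that interval leaves out the spread between cells. A few cells carried most of the reads: regenerating pole replicate 2 gave 67.5% of the reads of its group, and uninjured pole replicate 5, the most deeply sequenced cell, gave 47.5%. Without regenerating pole replicate 2, the level of that group was 76.6 CPM. Without uninjured pole replicate 2, the level of its group was 71.8 CPM.

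To read shares of cells at a like depth, each cell was thinned to 50000 reads. otxb-like then had a read in 3 of 5 regenerating pole cells (60%, 14.7 to 94.7). Among regenerating non-pole cells it had one in 1 of 69 (1.45%, 0.0367 to 7.81), a cell whose single read had only a 38.4% chance of being kept. It had one in 4 of 7 uninjured pole cells (57.1%, 18.4 to 90.1) and in 3 of 53 uninjured non-pole cells (5.66%, 1.18 to 15.7). Without thinning 1 more pole cell counted, regenerating pole replicate 4, whose 16 reads had a 59.7% chance of leaving at least 1 at that depth. In all, 8 of 12 pole cells held the gene, and 4 non-pole cells.

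How firmly an absence can be read differed between the 4 pole cells with no otxb-like read. In uninjured pole replicates 6 and 7, with 3271738 and 2601224 reads, a count of 0 allows a level of up to 0.917 and 1.15 CPM, at 3 reads a cell. These limits lie well below the lowest level among the pole cells that held the gene. In regenerating pole replicate 1, with 207985 reads, the limit is 14.4 CPM, which is also below that level. In uninjured pole replicate 1, with 84813 reads, the limit at 3 reads is 35.4 CPM. A level like that of regenerating pole replicate 4 lies below this limit and could have been missed there.

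The other measures of these libraries stood as follows. The mitochondrial share of counted reads was 1.74% in regenerating pole replicate 1 and 2.59% in uninjured pole replicate 1, and both held no otxb-like read. In the other 10 pole cells the share was 16.2% to 42.9%, and uninjured pole replicates 6 and 7, also without the gene, were at 32.4% and 42.9%. Uninjured pole replicate 1 also held the least collagen RNA of the pole cells and only 2 reads of wnt1. Without the 2 pole cells of low mitochondrial share, the log2 fold over non-pole cells was 7.46 in the blastema and 4.47 in the uninjured tail. Since both held no otxb-like read, leaving them out could only raise it, and the part of library quality in these absences was not tested.

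**Figure D2:**
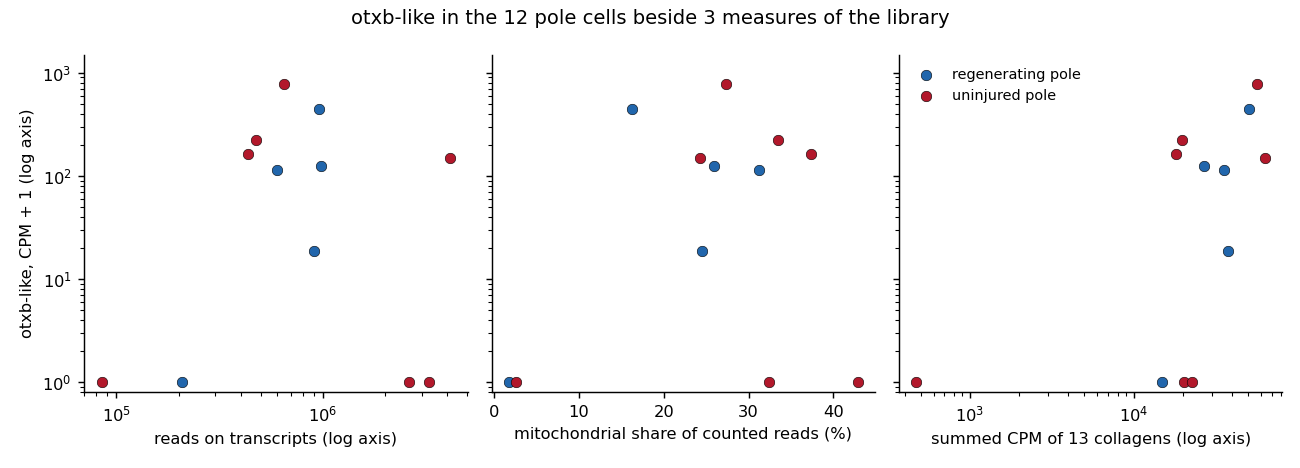
otxb-like in CPM plus 1 (log axis) in the 12 pole cells, against reads on transcripts (log axis), the mitochondrial share of counted reads in percent, and the summed CPM of 13 collagens (log axis). Each circle is a cell, blue for regenerating and red for uninjured. Cells with no read lie at the shallow and at the deep end, with both cells under 5% mitochondrial reads among them.

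Which pole cells held otxb-like together with wnt1, pitx, islet1 and wnt11-2 was read cell by cell. wnt1, used in the screen, and pitx were read in all 12 pole cells, and therefore in all 8 that held otxb-like and in the 4 that did not. islet1 was read in 6 of the 8, which were regenerating replicates 2, 3 and 4 and uninjured replicates 2, 4 and 5. wnt11-2 was read in 6 of the 8, which were regenerating replicates 2, 3 and 5 and uninjured replicates 2, 3 and 4. All of the other 4 genes stood beside otxb-like in 4 cells, regenerating replicates 2 and 3 and uninjured replicates 2 and 4.

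Among the 4 pole cells without otxb-like, regenerating replicate 1 held islet1 and wnt11-2, with 26 and 46 reads. Uninjured replicate 6 held islet1 alone of these 2 genes, with 669 reads, and uninjured replicates 1 and 7 held neither. Every uninjured pole cell with a wnt11-2 read thus also held otxb-like, although one of them, replicate 3, had only 1 such read. The gene was read in pole cells with islet1 and without it, and with wnt11-2 and without it.

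**Figure D3:**
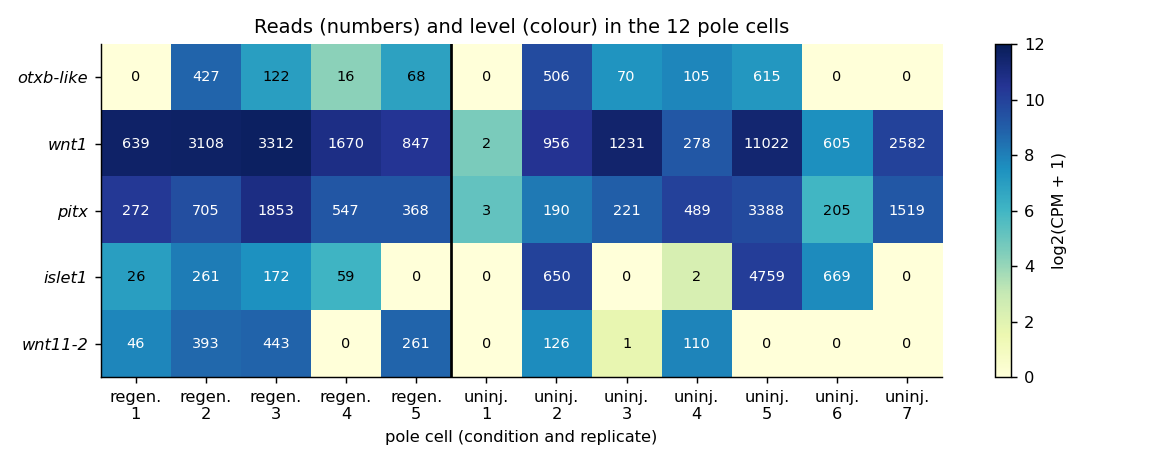
Reads (numbers) and level as log2(CPM + 1) (colour) of otxb-like, wnt1, pitx, islet1 and wnt11-2 in the 12 pole cells, regenerating cells left of the line and uninjured cells right of it. wnt1 and pitx fill every column, while otxb-like is read in 8 columns and shares 6 of them with islet1 and 6 with wnt11-2.

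After thinning, 7 pole cells held otxb-like, and of these 7 held pitx, 5 held islet1 and 5 held wnt11-2. One of the islet1 cells, uninjured replicate 4, had only 2 islet1 reads before thinning, which had a 19.95% chance of leaving at least 1. The expected number of pole cells with a read, computed over all draws, was 7.59 of 12 for otxb-like at 50000 reads, 6.02 at 10000 and 1.63 at 1000. For pitx it was 11.9, 10.7 and 5.41 at the same depths. Calls of otxb-like in single pole cells thus depended on depth. They did so most below about 20000 reads, where 7.02 cells were expected, and still somewhat at 50000 reads, since 8 cells held the gene without thinning.

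**Figure D4:**
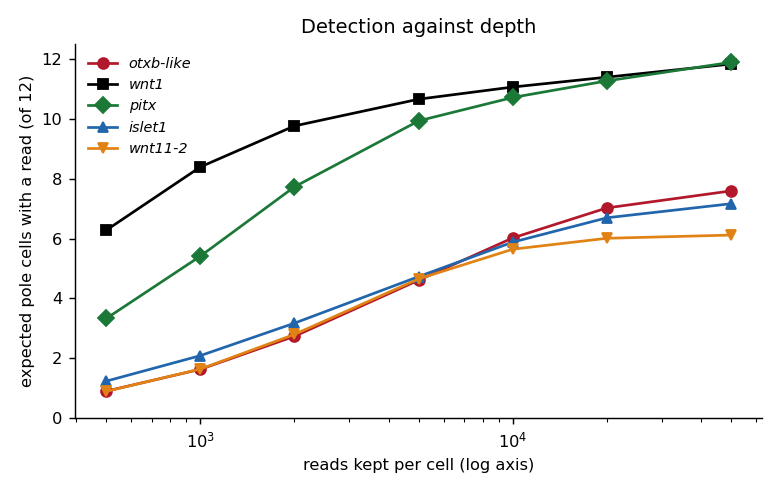
Expected number of the 12 pole cells with at least 1 read of each of 5 genes, against the number of reads kept per cell (log axis). otxb-like follows islet1 and wnt11-2 at shallow depth and reaches 7.59 cells at 50000 reads, while wnt1 and pitx pass 11 cells.

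The 4 non-pole cells with otxb-like differed among themselves. Regenerating non-pole replicate 48 held 1 read, together with 2 reads of wnt1 and 3 of pitx, and it was rich in collagen RNA at 52046 CPM. Counts of this size are close to the limit of detection. Without this cell the regenerating non-pole group had 0 otxb-like reads.

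Uninjured non-pole replicate 36, summed with its near-identical library 37, held 33 otxb-like reads (87.1 CPM) and 66364 CPM of collagens, the median of its group. The gene stood at 106.5 CPM in 1 library of the pair and at 68.1 CPM in the other. Uninjured non-pole replicate 62, summed with library 64, held 76 and 65 reads in its libraries, which came to 201 CPM together and to 203 and 200.2 CPM apart. This cell gave 79.7% of the otxb-like reads of its group, and its collagens came to only 364 CPM and its contractile genes to 410.0 CPM. Uninjured non-pole replicate 2 held 3 reads (43.02 CPM) and 258 CPM of collagens, with 1334 CPM over 8 markers of neurons (2 of them read) and 1362 CPM over 9 markers of cilia (3 of them read).

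None of these 3 uninjured cells held a read of wnt1, pitx, islet1 or wnt11-2. Conversely, wnt11-2 was read in 76 non-pole cells, and otxb-like in none of them. The uninjured contrast leaned on replicate 62: without it the non-pole level was 0.845 CPM and the log2 fold 5.93, and without all cells under 5000 CPM of collagens the log2 fold was 5.92.

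Markers of neurons and cilia were read in all 4 groups. In regenerating pole cells, 4 of the 8 neural markers were read, at a sum of 86.8 to 1024 CPM a cell and a median of 379 CPM, against 3 of 8 in regenerating non-pole cells, at 0 to 2664 CPM and a median of 35.3 CPM. In uninjured pole cells 4 of 8 were read, at 0 to 1066 CPM and a median of 50.6 CPM, against 6 of 8 in uninjured non-pole cells, at 0 to 2655 CPM and a median of 39.8 CPM. GAD1, which makes GABA, the neuropeptide gene secreted peptide prohormone-13 and the glutamate receptor gene GRIA1 had 0 reads in the pole cells of both conditions, as had RIMS2 in the uninjured and GRIA4 in the regenerating ones. The remaining markers (prohormone convertase 2, PCSK1 and SYT11) were read in pole cells of both, and the study drew these 3 and GRIA4 from these cells.

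Of the 9 cilia markers, 2 were read in regenerating pole cells (0 to 86.8 CPM, median 32.01) and 6 in regenerating non-pole cells (0 to 359.7 CPM, median 0). Among uninjured cells, 6 were read in pole cells (0 to 924 CPM, median 0) and 7 in non-pole cells (0 to 1362 CPM, median 0). The neural sum was higher at the median in regenerating pole than in regenerating non-pole cells. That sum takes in prohormone convertase 2, PCSK1 and SYT11, which the study drew from these cells, so it is no independent sign of neural RNA. Of the markers not drawn so, RIMS2 was read in regenerating pole and in no regenerating non-pole cells. For GRIA1 it was the reverse. The part of other cell types in the otxb-like reads was not tested.

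Set beside 11 other homeobox genes, otxb-like was one of those higher in pole cells of both conditions. Of the 11 genes of the list with enough reads, itself included, 5 were higher and 5 lower in the blastema, against 13.2% and 37.8% of all transcripts. In the uninjured tail 3 were higher and 6 lower, against 18.9% and 48.1%. otxb-like, pitx, islet1 and msh1 were drawn by the study from these cells and are not independent evidence of a direction. Of the 7 others with enough reads, 1 was higher and 5 lower in the blastema, and 0 were higher and 6 lower in the uninjured tail. The median log2 fold of the list was -0.07 in the blastema and -1.75 in the uninjured tail, beside -0.43 and -0.91 for all transcripts. With groups of 0 reads set at their limit of 3 reads and the same pseudocount, the medians were 0.09 over the 10 genes with a fold to give in the blastema and -1.75 in the uninjured tail. The gene left out of the blastema was IRX6, whose own value was the median with it, so that no direction of the list can be read there.

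The paired class gene pitx had log2 folds of 9.25 in the blastema and 8.04 in the uninjured tail, both above those of otxb-like. islet1 had 4.15 and 4.86. msh1, of the Msx family, stood at 194 CPM in regenerating pole cells against 2.50 CPM in regenerating non-pole cells. In the uninjured tail it stood at 14.7 CPM in pole cells and 8.68 CPM in non-pole cells. It was read in 6 pole cells, and all 6 held otxb-like. They were replicates 2, 3 and 4 of each condition. In 9 non-pole cells with msh1 there was no otxb-like read.

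islet2, like islet1 a LIM class gene, was read in 3 pole cells, all of which held otxb-like, with a log2 fold of 2.02 in the blastema and -2.74 in the uninjured tail. prep, a TALE class gene, was read in 3 pole cells and 42 non-pole cells, and those 42 took in all 4 non-pole cells with otxb-like. In the blastema its pole cells had 0 reads, at least 95.5-fold below the non-pole cells. In the uninjured tail its log2 fold was -1.75. The Iroquois gene IRX2 was read in 3 regenerating pole cells, with a log2 fold of -1.84, and in no uninjured pole cell, at least 221-fold below uninjured non-pole cells.

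nkx1-1, of the NK class, had no read in any pole cell, which put it at least 118.5-fold below non-pole cells in the blastema and at least 72.96-fold below them in the uninjured tail. tlx1-like, of the Tlx family, also had 0 reads in pole cells, with bounds of at least 13.5-fold in the blastema and at least 3.85-fold in the uninjured tail. ZFHX3, a zinc finger homeobox gene, had 0 reads in regenerating pole cells, at least 57.3-fold below, and a log2 fold of -5.57 in the uninjured tail. Among the non-pole cells with otxb-like it was read in uninjured replicate 62, poor in collagen RNA, with 881 reads (1259 CPM), and in replicate 36, rich in it, at 285 CPM. IRX6 had 0 reads in pole cells, at least 29.04-fold below in the uninjured tail and with no fold to give in the blastema, and NKX2-4 had 0 reads in all groups. These bounds do not cover which cells were drawn.

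**Figure D5:**
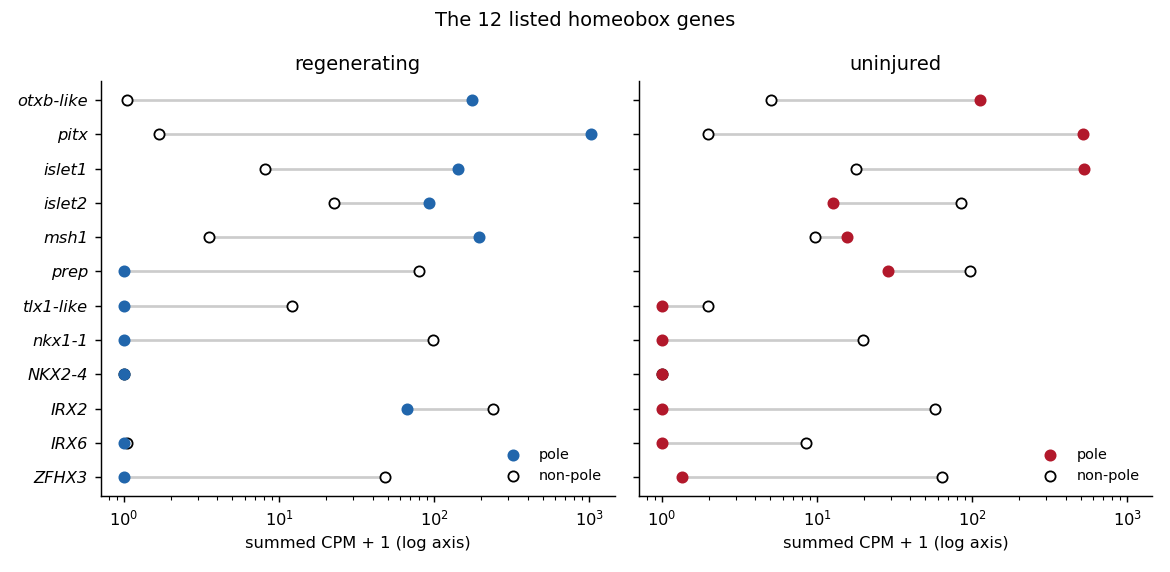
Summed CPM plus 1 (log axis) of the 12 listed homeobox genes in pole cells (filled) and non-pole cells (open), in the regenerating tail (left) and the uninjured tail (right). otxb-like, pitx and islet1 lie to the right of their open circles in both panels, and prep, tlx1-like, nkx1-1, IRX2 and ZFHX3 to the left.

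A pair of wider lists are given by their counts. In the blastema, 5 of 13 other transcription factor contigs that passed the read minimum were higher in pole cells and 5 were lower, against 13.2% and 37.8% of all transcripts, and 6 were higher and 2 lower in the uninjured tail, against 18.9% and 48.1%. Of 12 contigs of the Wnt pathway, 4 were higher and 6 lower in the blastema, and 2 were higher and 4 lower in the uninjured tail, beside the same shares of all transcripts. Both lists hold members that the study drew from these cells. Without those, 0 of 8 transcription factors were higher and 5 lower in the blastema, and 1 was higher and 2 lower in the uninjured tail. Of 8 Wnt pathway contigs left in the same way, 0 were higher and 6 lower in the blastema, and 0 were higher and 4 lower in the uninjured tail.

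Likeness of pattern was measured by Pearson's r of log2(CPM + 1) with otxb-like, across 6915 transcripts with a read in at least 3 pole cells. The values below describe these cells, which are not replicates and differ widely in depth, and they carry no test. Over the 12 pole cells, 10 transcripts reached 0.80 or more, the median was 0.05 and the lowest value was -0.86. The highest was the unnamed contig dd_Smed_v4_34 (r = 0.89), read in all pole cells and in most non-pole cells, so that its presence did not mark the pole. The second was dd_Smed_v4_2738, named PKM after the muscle form of pyruvate kinase, an enzyme of glycolysis (r = 0.87), higher in pole cells at a log2 fold of 4.503 in the blastema and 5.36 in the uninjured tail.

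The others were dd_Smed_v4_2679 (r = 0.86), dd_Smed_v4_2693 (0.83), dd_Smed_v4_2697 (0.83), dd_Smed_v4_2265 (0.82), dd_Smed_v4_2799 (0.82), dd_Smed_v4_8110 (0.81), dd_Smed_v4_3428 (0.81) and dd_Smed_v4_8376 (0.80). Of these only dd_Smed_v4_3428 has a name, THOC7, a subunit of the THO complex that acts in mRNA export. PKM was the only one of the 10 that was also on the study's list of pole genes. Without uninjured pole replicate 1, 7 of the 10 were still among the 10 highest, with r of 0.76 to 0.89 over all 10. Within regenerating pole cells alone, r of the 10 ran from 0.33 (dd_Smed_v4_8376) to 0.93 (dd_Smed_v4_34). Within uninjured pole cells alone it ran from 0.78 (dd_Smed_v4_3428) to 0.997 (dd_Smed_v4_2697).

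The genes followed beside otxb-like stood further down. Over the 12 pole cells r was 0.54 for wnt1, 0.53 for wnt11-2, 0.46 for pitx and 0.28 for islet1. Without uninjured pole replicate 1 these were 0.40, 0.46, 0.28 and 0.15. Weak values of this kind in sparse counts are no finding, and 317 transcripts stood above wnt1 in the first ranking.

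Over all kept cells, where the contrast between pole and non-pole cells enters, the 10 highest were dd_Smed_v4_21755 (r = 0.70), wnt1 (0.68), dd_Smed_v4_23400 (0.67), pitx (0.65), dd_Smed_v4_59018 (0.63) and dd_Smed_v4_50225 (0.63), both named gcr143, CUBN (0.62), named after the endocytic receptor cubilin, ASIC5 (0.60), named after an acid-sensing ion channel, dd_Smed_v4_20026 (0.58) and PKM (0.58). All 10 are on the study's own list of pole genes, which was made from these cells. islet1 was at 0.47 and wnt11-2 at -0.02. dd_Smed_v4_21755 was read in 10 pole cells and 2 non-pole cells, and its r over the 12 pole cells alone was 0.70.

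A single transcript with enough reads, the unnamed contig dd_Smed_v4_8945, was read in the same 8 pole cells as otxb-like and in no other pole cell. It stood at 45.97 CPM over the 12 pole cells. It was also read in 52 non-pole cells, so the match did not extend to them.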

How the data were processed

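Single planarian cells were sequenced by Smart-seq2 after a qRT-PCR screen for wnt1 and collagen, and GEO's labels alone set the 4 groups. The labels hold more libraries than the study's text counts. The authors deposited raw read counts for 26566 rows. CASAVA 1.7.0, Trimmomatic 0.32 and Bowtie are named in the processing notes of the submitters. The counting tool and the handling of reads that fit several contigs are not given in the sources used here. The other deposited table holds the authors' SCDE comparison, with fold estimates and Z scores, and was not used.

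The 6 rows outside that comparison (63.6% of counted reads, among them a mitochondrial row at 19.9%) stayed out of totals. Rows of the same contig number were added up, which gave 26399 transcripts. Library pairs under a chi-square of 10 per degree of freedom were summed to 1 cell: 6 of 9730 pairs, at 1.28 to 7.41, against 22.2 or more for the rest. Their differences exceeded sampling noise, a little at the low end and several-fold at the high end, and were smaller than those of other pairs. Whether each pair is 1 cell is not given by the labels. A cell needed at least 50000 reads on transcripts and 500 transcripts read. Depth was 207985 to 977771 reads in regenerating pole, 51801 to 1296478 in regenerating non-pole, 84813 to 4132918 in uninjured pole and 62749 to 3527793 in uninjured non-pole cells. No doublet caller was run, since cells were sorted singly.

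Reads were summed per group and given as CPM, with exact Poisson intervals for sums, Clopper-Pearson intervals for shares and conditional binomial intervals for ratios (Python 3.11.15, numpy 2.4.6, pandas 2.3.3, scipy 1.17.1). A pseudocount of 1 CPM was added before log2 folds, which understates differences of low transcripts. Where a group had 0 reads, 3 reads over the group were taken as its limit. TMM factors in edgeR 4.0.16 were an alternative. No difference between groups was tested and p-values are left out, because each group is 1 sample. The steps were tested on simulated data. The gene, its companions and the lists were chosen with earlier results of these data known. Named are otxb-like, wnt1, pitx, islet1 and wnt11-2, the 12 listed homeobox genes, the 10 transcripts most like otxb-like over pole cells and over all cells, and those read in the same pole cells.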

Additional observations from a re-analysis of the deposited data

Results flagged for a closer look

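Among the 5 genes followed in every pole cell, the highest and the lowest cell of each pole group were compared with the other cells of that group by Dixon's ratio, the gap to the nearest cell divided by the whole range. Of 10 groups of values, 2 stood apart. For independent normal values about 1 in 20 would, a rate that need not hold for cells of 1 sample with skewed values and many zeros, so the ratios are a description of values that also chose the gene.

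The highest of the 5 regenerating pole cells for otxb-like, replicate 2, stood at 446 CPM, with a ratio of 0.721, just above the critical value of 0.71. The highest of the 7 uninjured pole cells, replicate 2, stood at 780 CPM, with a ratio of 0.717, well above the lower critical value for 7 cells. In both cells wnt1, pitx, islet1 and wnt11-2 were read too, and none of these 4 genes stood apart in either cell by the same measure. These cells had 956489 and 648498 reads on transcripts. Cells with no read set the lower end of both ranges.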

How the results depend on the processing

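Over 92 recomputed values none changed direction and 67 stayed within the counting interval (for shares, within 1.5 times the count). The 35 recomputed log2 folds ran from 5.71 to 10.2 in the blastema and from 3.84 to 5.93 in the uninjured tail, all higher in pole cells. The gene was chosen on these folds, and some alternatives, such as leaving out pole cells without it, could only raise them. Their shared direction is therefore a description. The counting interval of the blastema contrast rests on 1 non-pole read and is very wide. That no recomputed blastema fold was counted as moved therefore says little. The ratio interval given above (632 to 139862) holds no pseudocount, so the log2 folds with a pseudocount are not to be set against it. With all rows in the total, the levels were 51.99 CPM in regenerating pole, 56.6 in uninjured pole and 1.88 in uninjured non-pole cells, so the pole groups changed order. As the mean over cells, the levels were 140.5, 187 and 6.26 CPM. With a pseudocount of 0.1 CPM the uninjured log2 fold was 4.73, and without cells under 5000 CPM of collagens it was 5.92. Without the non-pole cells that held a wnt1 read, the log2 fold was 7.45 in the blastema and 4.35 in the uninjured tail. Leaving out 1 pole cell at a time gave levels of 76.6 to 225 CPM in regenerating pole and 71.8 to 155 CPM in uninjured pole cells, and log2 folds of 6.21 to 7.75 and 3.84 to 4.94. Leaving out, as an alternative added after the data were seen, each non-pole cell with otxb-like in turn gave 0.845 to 4.02 CPM in the uninjured group (3.35 without replicate 36) with log2 folds of 4.48 to 5.93, and in the regenerating group 0 CPM with a log2 fold of 7.45. The 1 regenerating non-pole cell with a read was 0 cells after thinning to 10000 reads and with at least 5 reads required. Summing the near-identical pairs or not left the level as it was, which follows from a level being that of the group's summed reads. No paired analysis was possible because the labels give no replicate numbers (those used here follow accession order) and no difference between groups was tested. Depth limits the absence of otxb-like in uninjured pole replicate 1 and, less so, in regenerating pole replicate 1. With 12 pole cells the intervals of the shares span most of the scale.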

Other observations

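Besides otxb-like, 3 of 19372 transcripts were read in at least 8 of the 12 pole cells and in at most 4 non-pole cells. They were the unnamed contig dd_Smed_v4_21755, OVOL1 (dd_Smed_v4_10673), named after a zinc finger transcription factor, and dd_Smed_v4_14613, named PCDH9 after a protocadherin of cell adhesion. These names were looked up after their values were seen, and the share of cells enters with no depth correction.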
